A study of Mus musculus with 24 samples.

Results

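This report describes 8 genes of arginine metabolism and alternative macrophage activation, Slc7a2, Ass1, Nos2, Arg1, Arg2, Odc1, Retnla and Mrc1, in lung RNA of mice. They were picked out by gene symbol, from a list drawn up with earlier results of these data known, and they are 8 of the 23891 genes in the table. The samples were left lung lobes of C57BL/6 mice, sequenced as mRNA, and each was taken as a separate mouse. Naïve adult mice (n = 5) were 20 wk old and naïve aged mice (n = 5) were 80 wk old, and both groups are labelled as given saline without allergen. The naïve aged group is the control of the HDM comparisons and is called saline here. HDM mice (n = 7) were 80 wk old and were given house-dust mite, an extract that produces allergic airway inflammation, at 50 µg per dose. HDM + Dex mice (n = 7) were of the same age, had the same HDM doses and were also given dexamethasone (Dex), an anti-inflammatory steroid that acts on the glucocorticoid receptor, at 4 mg/kg every 72 h. The tissue of both HDM groups was collected 24 h after the last HDM dose. The paper's methods give n = 5 for RNA-seq, whereas the labels give 7 samples in each of the HDM groups, and the labels were used. No adult mice were challenged among these samples, so the response to HDM is described in aged mice only. The whole lobe was used, so fewer cells of a type and less RNA per cell cannot be told apart.

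Arginine enters the cell through cationic amino acid transporters and is then used by competing enzymes. The inducible nitric oxide synthase makes nitric oxide and citrulline from it, and argininosuccinate synthase starts the route that turns citrulline back into arginine. Arginases split arginine into urea and ornithine, and ornithine decarboxylase commits ornithine to the polyamines. In macrophages, interferon-γ and microbial products induce the nitric oxide synthase, which is called classical activation. IL-4 and IL-13, the cytokines of allergic inflammation, induce arginase 1, the resistin-like molecule Retnla and the mannose receptor Mrc1, which is called alternative activation. Retnla is also made by airway epithelium.

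Values are CPM, in which the counts of each sample are scaled to the same total. Fold changes come from limma on log2(CPM + 1) over the 17744 genes whose mean reached 1 CPM, and a gene was called at an adjusted p under 0.05. All 8 genes passed this filter. The table keeps CPM only, and the depth estimated from its lowest values was 10.1 to 33.1 M reads per sample, at which 3 reads give 0.0906 to 0.298 CPM. The share of counts on 7SL, an abundant non-coding RNA that is part of the signal recognition particle, ran from 9.92% to 42.0%. Its median was 10.9% in saline, 28.1% in HDM and 26.8% in HDM + Dex. It was above 25% in 1 adult sample, in no saline sample, in 5 HDM samples and in 4 HDM + Dex samples. By Xist, 5 adult, 2 saline, 2 HDM and 4 HDM + Dex mice were female, and the 2 female HDM mice were the 2 HDM samples below 25%. HDM replicate 3 had 3269 genes without a read, the most of all samples, and the number of members called for HDM vs. saline was 4 with or without it. Alveolar epithelium markers were present in every sample, with a summed level of at least 2821 CPM. The 2 liver markers in the table summed to at most 2.18 CPM, although liver is rich in Arg1. Heart muscle markers summed to 504 to 979 CPM in naïve adult, 534 to 984 CPM in saline, 20.3 to 403 CPM in HDM and 42.9 to 1166 CPM in HDM + Dex samples.

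The RefSeq promoter table (GRCm38.p6), with 250 bases before to 50 bases after a gene's start, held 4 of the 8 genes, Ass1, Odc1, Retnla and Mrc1. The windows of Retnla and Odc1 are shown because, of these 4 genes, they had the highest and the lowest log2 fold change with HDM, described next. Odc1 was not called. Capitals mark the matches to the motifs named after the sequences.
Retnla, chr16:48842359-48842658, plus strand: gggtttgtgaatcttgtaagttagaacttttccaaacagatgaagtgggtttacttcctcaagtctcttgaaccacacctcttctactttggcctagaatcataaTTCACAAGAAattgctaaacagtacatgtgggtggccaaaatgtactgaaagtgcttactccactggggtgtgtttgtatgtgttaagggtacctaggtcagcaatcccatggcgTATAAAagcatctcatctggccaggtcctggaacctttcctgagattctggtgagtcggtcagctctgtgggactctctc
Odc1, chr12:17544623-17544922, plus strand: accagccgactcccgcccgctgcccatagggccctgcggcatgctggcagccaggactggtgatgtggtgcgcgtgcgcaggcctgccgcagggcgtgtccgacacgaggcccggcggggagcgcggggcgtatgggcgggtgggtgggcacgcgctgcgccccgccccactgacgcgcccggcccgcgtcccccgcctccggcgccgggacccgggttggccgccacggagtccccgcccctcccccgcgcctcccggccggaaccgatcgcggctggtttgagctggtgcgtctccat

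The window of Retnla held 1 match to the STAT6-type motif TTCNNNNGAA at bases 106 to 115 and 1 TATA box (TATAAA) at bases 221 to 226, counted from the window's first base. The STAT6-type motif was in 6.98% and the TATA box in 13.6% of the 32544 different windows in the table. None of the motifs given here was found in the windows of Odc1, Ass1 or Mrc1. The others, searched like these on both strands, were the NF-κB-type GGGANTTTCC, in 0.415% of all windows, and the glucocorticoid receptor hexamer TGTTCT, in 18.9%. The GC content was 44.7% for Retnla, 50.3% for Mrc1, 74% for Ass1 and 78% for Odc1, against a median of 53% over all windows. A match describes the letters only and is not evidence that a factor binds.

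With HDM, 4 of the 8 genes were higher than in saline: the transporter Slc7a2, the nitric oxide synthase Nos2, arginase 1 (Arg1) and Retnla. Of all genes tested, 25.3% were called in this comparison, 4.04% as higher and 21.2% as lower, and none of the 8 was called lower. The median log2 fold change was 1.01 over the 8 genes and −0.23 over all genes. Nos2 and Arg1, which compete for arginine, were both among the genes that rose. HDM replicate 2 had the lowest level of every one of the 8 genes but Odc1 among the HDM samples, and without it 5 of the 8 were called. After a rescaling by the median of ratios, which is less sensitive to the 7SL share, the median of all genes was −0.01, and 5 of the 8 genes were called. That rescaling changed the number of higher genes among the called ones from 717 of 4482 to 1930 of 3985. With the 7SL share as a covariate, in contrast, only Nos2 and Retnla of the 8 genes were called, and 1172 of the 1571 called genes were higher (74.6%).

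**Figure D1:**
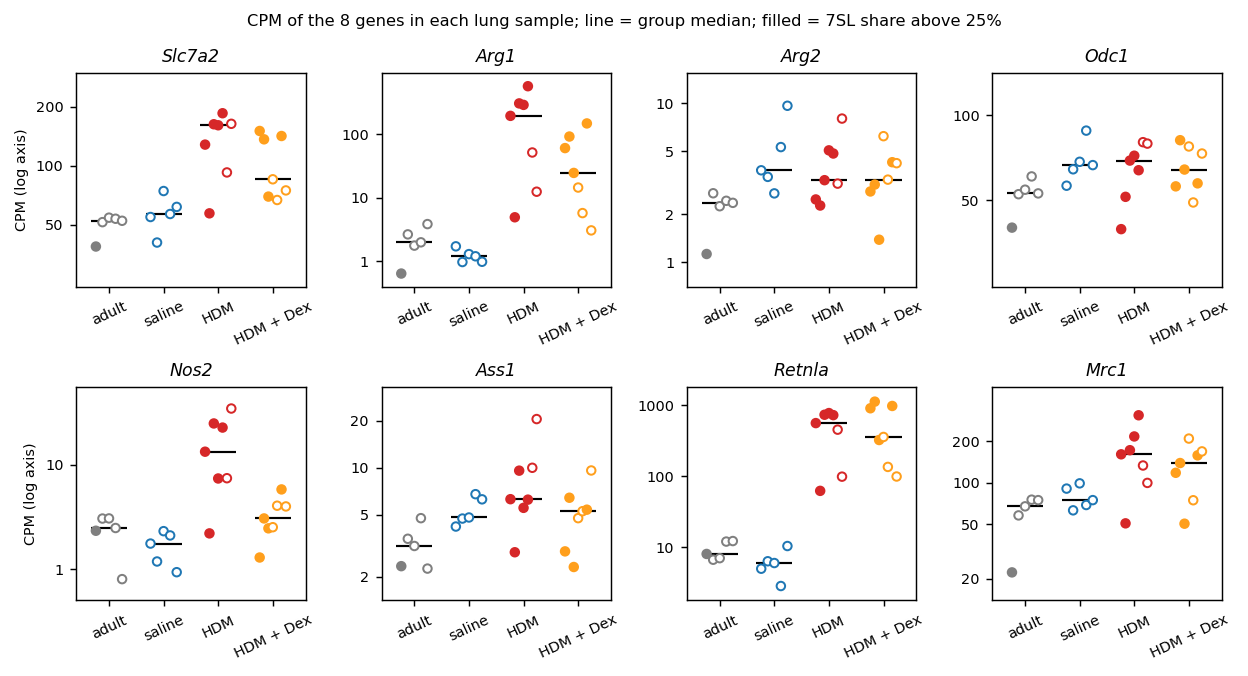
CPM of the 8 genes on log axes, with a point for each sample of the naïve adult, saline, HDM and HDM + Dex groups, a line at the group median, and filled points for samples with a 7SL share above 25%. All 7 HDM samples lie above the 5 saline samples for Arg1 and Retnla, whereas the groups overlap for Arg2 and Odc1.

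Slc7a2 (ENSMUSG00000031596.15, chr8:40862396-40922308, plus strand), the cationic amino acid transporter CAT-2, was measured at 54.7, 40.5, 74.2, 56.7 and 61.6 CPM in the saline samples. In HDM, the lowest value was 57.1, the median 161 and the highest 185 CPM. Of the 7 HDM samples, 6 lay above the highest saline sample, and only replicate 2 lay within the saline range. The mean was 57.5 ± 12.2 CPM (SD, n = 5) in saline and 136 ± 46.0 CPM (SD, n = 7) in HDM, a log2 fold change of 1.16 ± 0.26 (SE, adjusted p = 0.00388, limma). In HDM + Dex, Slc7a2 ran from 66.8 to 150 CPM, with a median of 85.2 CPM. Its log2 fold change was −0.37 ± 0.24 (SE, adjusted p = 0.552) against HDM and 0.78 ± 0.26 (SE, adjusted p = 0.117) against saline. Of the HDM + Dex samples, 5 of 7 lay above the highest saline sample. Slc7a2 overlaps an antisense non-coding gene, Gm26584, by 635 bases of exon, so that some of its counts could belong to that gene if strand was not used in counting.

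Ass1 (ENSMUSG00000076441.9, chr2:31470207-31520672, plus strand), argininosuccinate synthase, stood at 4.20, 4.72, 4.80, 6.76 and 6.27 CPM in saline. In HDM it ran from 2.87 to 20.5 CPM, with a median of 6.28 CPM. Replicate 7 alone reached 20.5 CPM, 3 of the 7 samples lay above the saline range, and 1 lay below it. The log2 fold change was 0.45 ± 0.32 (SE, adjusted p = 0.302) for HDM vs. saline and −0.55 ± 0.29 (SE, adjusted p = 0.426) for HDM + Dex vs. HDM.

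Nos2 (ENSMUSG00000020826.8, chr11:78920787-78960254, plus strand), the inducible nitric oxide synthase, was near the filter in saline, at 1.77, 1.19, 2.32, 2.11 and 0.940 CPM. In the HDM samples it was measured at 13.4, 2.21, 24.9, 7.40, 22.7, 7.45 and 34.6 CPM, in the order of their replicate numbers. All HDM samples except replicate 2 lay above the saline range. The mean was 9.65 times that of saline, and the log2 fold change was 2.34 ± 0.42 (SE, adjusted p = 0.000884). In the HDM + Dex samples, Nos2 was at 1.30, 3.07, 2.47, 2.53, 4.07, 5.82 and 4.00 CPM. Except for HDM replicate 2, every HDM sample lay above every HDM + Dex sample. Nos2 was the only one of the 8 genes called between HDM + Dex and HDM, with a log2 fold change of −1.69 ± 0.38 (SE, adjusted p = 0.0356, limma) and a mean of 3.32 ± 1.46 CPM (SD, n = 7) against 16.1 ± 11.6 CPM (SD, n = 7).

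Arg1 (ENSMUSG00000019987.9, chr10:24915221-24927484, minus strand), the cytosolic arginase, was close to 1 CPM in saline, at 1.73, 0.980, 1.31, 1.21 and 0.989 CPM. In the HDM samples it was measured at 195, 4.95, 306, 290, 570, 51.8 and 12.5 CPM. Every HDM sample lay above every saline sample, but the HDM samples themselves spread 115-fold from the lowest to the highest. The mean of HDM was 165 times that of saline, and the log2 fold change was 5.31 ± 0.97 (SE, adjusted p = 0.000977). In HDM + Dex, Arg1 was at 60.7, 92.2, 24.7, 14.5, 5.77, 148 and 3.08 CPM. These values also lay above all saline samples, yet the test against saline missed the threshold, with a log2 fold change of 3.58 ± 0.97 (SE, adjusted p = 0.0552). The difference of HDM + Dex from HDM was −1.73 ± 0.88 (SE, adjusted p = 0.406), with a 95% confidence interval of −3.56 to 0.10 on the log2 scale, so that a large decrease or no decrease was within the error.

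In both HDM groups, the mean of Arg1 was higher in the samples with a 7SL share above 25% than in those below it, although the lowest HDM sample was above 25%. In HDM, all samples above 25% were male and those below it female, so the 7SL share and sex cannot be told apart there. In HDM + Dex, the 3 samples below 25% were female, and of the 4 above it only replicate 6 was, at 148 CPM. The 5 HDM samples with a 7SL share above 25% had a mean of 273 CPM and ranged from 4.95 to 570 CPM, and the 2 below it had 51.8 and 12.5 CPM. In HDM + Dex, the 4 samples above 25% ranged from 24.7 to 148 CPM and the 3 below it from 3.08 to 14.5 CPM. The samples below 25% exceeded the saline samples, which are all below 25%, in both comparisons (HDM, log2 difference 3.58, exact permutation p = 0.0476, n = 2 and 5; HDM + Dex, 1.76, exact permutation p = 0.0179, n = 3 and 5). Both p-values are the smallest that these numbers of samples allow. They were fixed beforehand, since every HDM and HDM + Dex sample lay above every saline sample. They are therefore no test of the 7SL share. With the 7SL share as a covariate, the log2 fold change of Arg1 for HDM vs. saline was 3.15 instead of 5.31 and no longer called (adjusted p = 0.0596), and that of Slc7a2 was 0.91 instead of 1.16 (adjusted p = 0.0861). With sex as a covariate, Arg1 had 5.14 (adjusted p = 0.000685) for HDM vs. saline and 3.83 (adjusted p = 0.0168) for HDM + Dex vs. saline.

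Arg2 (ENSMUSG00000021125.6, chr12:79130777-79156301, plus strand), the mitochondrial arginase, did not follow Arg1. It was at 3.79, 3.44, 2.71, 5.30 and 9.62 CPM in saline and between 2.28 and 7.99 CPM in HDM, with a median of 3.28 CPM. The groups overlapped throughout, and the log2 fold change was −0.19 ± 0.29 (SE, adjusted p = 0.639) for HDM vs. saline, a sign that changed to 0.01 after the median-of-ratios rescaling. Arg2 shares 285 exon bases with the antisense gene Vti1b, which is measured at a mean of 64.7 CPM, so its counts are uncertain where strand was not used. Odc1 (ENSMUSG00000011179.8, chr12:17544794-17551505, plus strand), ornithine decarboxylase, was at 56.2, 64.3, 68.4, 88.3 and 66.5 CPM in saline and between 39.4 and 80.3 CPM in HDM. Its log2 fold change was −0.10 ± 0.17 (SE, adjusted p = 0.684), and 0.15 after the rescaling, with a 95% confidence interval of −0.45 to 0.25 before it. Per kb of exon, Odc1 was still the most abundant of the 6 genes of arginine metabolism in saline, at 20.2 ± 3.48 CPM per kb (SD, n = 5). In HDM, Arg1 had the highest mean of them, at 91.7 ± 91.9 CPM per kb (SD, n = 7), against 19.1 ± 4.40 CPM per kb for Odc1, a difference smaller than the SD of Arg1.

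Retnla (ENSMUSG00000061100.4, chr16:48842551-48844461, plus strand), the secreted resistin-like molecule alpha, rose in both comparisons with saline. It was at 4.94, 6.30, 5.95, 2.82 and 10.3 CPM in saline. In HDM it was at 563, 62.2, 739, 780, 730, 455 and 98.7 CPM, and in HDM + Dex at 913, 1132, 325, 359, 135, 983 and 99.1 CPM. No sample of either challenged group overlapped with saline. The mean was 80.7 times that of saline in HDM and 92.9 times in HDM + Dex. The log2 fold change was 5.73 ± 0.65 (SE, adjusted p = 3.76e-05) for HDM and 5.91 ± 0.65 (SE, adjusted p = 2.18e-05) for HDM + Dex. Between HDM + Dex and HDM it was 0.18 ± 0.59 (SE, adjusted p = 0.933), with a 95% confidence interval of −1.04 to 1.40, and 3 HDM + Dex samples lay above the highest HDM sample. The interval includes changes by more than 1 on the log2 scale in either direction, so equal levels with and without Dex were not shown. As for Arg1, the samples with a 7SL share below 25% were mostly lower, at 99.1 to 359 CPM in HDM + Dex against 325 to 1132 CPM above it. They were above saline, with a log2 difference of 4.68 (exact permutation p = 0.0179, n = 3 and 5). That p was fixed beforehand, since no HDM + Dex sample overlapped with saline, and it is no test of the 7SL share.

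Mrc1 (ENSMUSG00000026712.3, chr2:14229392-14332057, plus strand), the mannose receptor CD206, was already well expressed in saline, at 90.5, 62.9, 98.8, 68.8 and 74.6 CPM. In HDM the lowest value was 50.6, the median 161 and the highest 309 CPM. Of the 7 samples, 6 lay above the saline range and replicate 2 lay below it. The log2 fold change of 0.87 ± 0.35 (SE) did not pass (adjusted p = 0.0691), but it did so after the median-of-ratios rescaling (1.12, adjusted p = 0.0291) and without HDM replicate 2 (adjusted p = 0.00995). Mrc1 was called in only 7 of 32 other fits, and not with the 7SL share as a covariate (adjusted p = 0.150, limma). In HDM + Dex, Mrc1 was between 50.3 and 209 CPM, with log2 fold changes of −0.26 ± 0.32 (SE, adjusted p = 0.797) against HDM and 0.61 ± 0.35 (SE, adjusted p = 0.301) against saline.

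**Figure D2:**
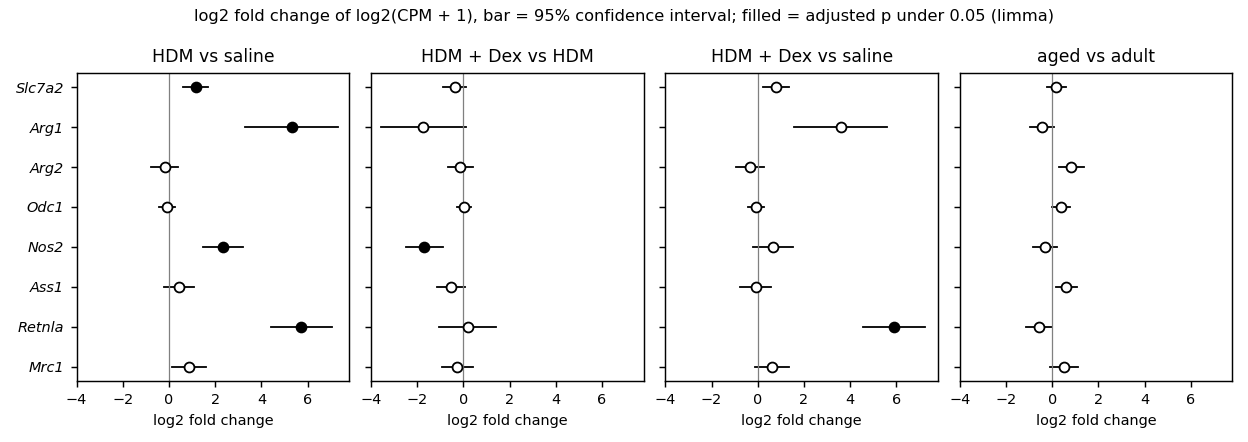
log2 fold change of each gene in the 4 comparisons, on the scale of log2(CPM + 1), with bars for the 95% confidence interval and filled points for an adjusted p under 0.05. Arg1 and Retnla have the largest values for HDM vs. saline (5.31 and 5.73), Nos2 is the only filled point for HDM + Dex vs. HDM (−1.69), and no point is filled for aged vs. adult.

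Dex with HDM was compared with HDM alone to see which of these responses differ under the glucocorticoid. Only Nos2, 1 of the 8 genes, was called, and it was lower. Of all genes tested, 0.964% were called here, 0.75% as higher and 0.214% as lower, and 0.225% did not overlap between the groups, which none of the 8 genes achieved. The call of Nos2 held in 20 of 32 other fits and was lost in 12, with adjusted p between 0.00384 and 0.0954. It was lost in 9 of the fits that left out 1 sample, that is HDM replicate 1, 3, 4 or 5 or HDM + Dex replicate 1, 3, 4, 5 or 7, and when the other aged group was left out of the fit. An exact permutation test of the 7 against 7 values of log2(CPM + 1) gave p = 0.00758 (two-sided), unadjusted. Among the samples with a 7SL share above 25%, the log2 difference was −1.62 (exact permutation p = 0.0714, n = 4 and 5), and below it −1.95 (exact permutation p = 0.1, n = 3 and 2, the smallest p possible). The other 7 genes had adjusted p of at least 0.406.

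Against saline, HDM + Dex left Retnla as the only one of the 8 genes called, at a background of 1.89% of all genes called, 0.445% as higher and 1.44% as lower. That background of 335 genes was unstable, with 66 to 772 genes when 1 sample was left out, 34 with the 7SL covariate, 1929 with the sex covariate and 5471 with sample quality weights. After the median-of-ratios rescaling, the share of higher genes among those called was 52.1% of 167 instead of 23.6% of 335, and Retnla was again the only member called. Arg1 and Retnla were the 2 genes whose samples did not overlap, a pattern found for 2.4% of all genes. The same 2 genes did not overlap for HDM vs. saline, where 8.71% of all genes did not. Arg1 was called in 11 of 32 other fits, and its adjusted p ranged from 0.00308 to 0.526. Nos2 had a log2 fold change of 0.65 ± 0.42 (SE, adjusted p = 0.351), with 6 of 7 samples above the saline range.

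Log2 ratios of 2 genes within a sample were formed from CPM + 1, so that they depend on the pseudocount where a gene is low, and 12 comparisons of them were tested by exact permutation (two-sided, adjusted over the 12). The log2 ratio of Arg1 to Nos2 compares the 2 competing enzymes. It was −0.23 ± 0.27 (SD, n = 5) in saline, 2.74 ± 2.29 (SD, n = 7) in HDM and 2.70 ± 2.04 (SD, n = 7) in HDM + Dex. It was thus higher in HDM than in saline by 2.97 (exact permutation, adjusted p = 0.0433, higher in 30 of 35 pairs of samples) and in HDM + Dex than in saline by 2.93 (exact permutation, adjusted p = 0.0328). Both calls were fragile. That of HDM was lost when any of the 5 saline samples or HDM replicate 1, 3, 4, 5 or 6 was left out (exact permutation, adjusted p from 0.0545 to 0.0831) and with a pseudocount of 5 (2.56, exact permutation, adjusted p = 0.0606). That of HDM + Dex was lost without saline replicate 2, 3 or 4 (exact permutation, adjusted p of 0.0545 to 0.0606). Between HDM + Dex and HDM it differed by −0.05 (exact permutation, adjusted p = 0.967), while both enzymes had lower means with Dex. HDM replicate 7 stood apart, with a log2 ratio of −1.40, the highest Nos2 and a low Arg1. In the samples below a 7SL share of 25% alone, the difference of HDM from saline was 0.85 (exact permutation p = 0.524, n = 2 and 5).

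The log2 ratio of Arg1 to Arg2 was −1.32 ± 0.69 (SD, n = 5) in saline and 4.19 ± 2.54 (SD, n = 7) in HDM, a difference of 5.50 (exact permutation, adjusted p = 0.0101), with all 35 pairs of samples higher in HDM. In HDM + Dex it was 2.60 ± 2.08 (SD, n = 7), 3.92 above saline (exact permutation, adjusted p = 0.0152). Between HDM + Dex and HDM it differed by −1.59 (exact permutation, adjusted p = 0.291), with −0.81 above and −1.66 below a 7SL share of 25%. The log2 ratio of Retnla to Mrc1, both genes of alternative activation, was −3.57 ± 0.61 (SD, n = 5) in saline, 1.29 ± 0.83 (SD, n = 7) in HDM and 1.73 ± 1.45 (SD, n = 7) in HDM + Dex. It exceeded saline by 4.86 and 5.30 (exact permutation, adjusted p = 0.00758 for both). Between HDM + Dex and HDM it differed by 0.44 (exact permutation, adjusted p = 0.595). That difference was 1.36 above a 7SL share of 25% (exact permutation p = 0.0159, unadjusted, n = 4 and 5). Below 25% it was −0.59 (exact permutation p = 0.6, unadjusted, n = 3 and 2). Below a 7SL share of 25%, the ratios of Arg1 to Arg2 and of Retnla to Mrc1 were higher in HDM than in saline, by 3.45 and 4.45 (exact permutation p = 0.0476 for both, n = 2 and 5, the smallest p possible). Since all 35 pairs of samples were higher in HDM for both ratios, this p was fixed beforehand. It is no test of the 7SL share.

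**Figure D3:**
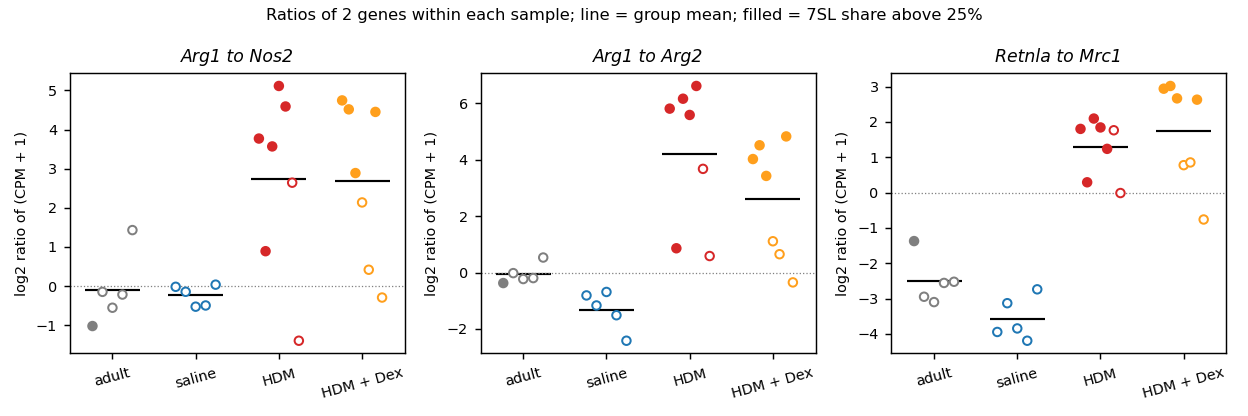
log2 ratios of (CPM + 1) of Arg1 to Nos2, Arg1 to Arg2 and Retnla to Mrc1 in each sample, with lines at the group means and filled points for a 7SL share above 25%. The ratio of Arg1 to Nos2 runs from −1.40 to 5.11 in HDM, and the ratio of Retnla to Mrc1 is above that of every saline sample in all 7 HDM samples.

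Whether the genes varied together between mice of a group was examined in the 19 aged samples after group means were removed (28 pairs, 100000 permutations, adjusted over the pairs). The permutations ran over all 19 samples and not within groups. Since the spread of some genes differed between the groups, these p-values can be too small. Arg1 and Retnla had the highest correlation, with Pearson's r of 0.933 (permutation adjusted p = 0.00028, from the smallest p that these permutations can give) and Spearman's rho of 0.847 (permutation adjusted p = 0.00112). It was 0.920 without the 2 samples farthest from the median of Arg1, 0.969 in the 9 samples above a 7SL share of 25% and 0.816 in the 10 below it. Arg1 and Slc7a2 correlated as well (r = 0.740, permutation adjusted p = 0.00336; rho = 0.733, permutation adjusted p = 0.00532), and r was 0.590 without 2 samples. That relation did not hold within both classes, as r was 0.936 above and −0.29 below 25%.

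Nos2 and Ass1, the nitric oxide synthase and the enzyme that starts the recycling of its product, had r = 0.684 (permutation adjusted p = 0.0129) and rho = 0.482 (permutation adjusted p = 0.136). Over all 19 samples r was 0.325 without the 2 samples farthest from the median of Nos2, on which the pooled value thus rested. It was 0.799 in the 9 samples above a 7SL share of 25%, which do not include HDM replicate 7, and 0.627 in the 10 below it. HDM replicate 7 was the highest sample of both genes. Arg1 and Nos2 had an r of 0.288 (permutation adjusted p = 0.365), with 0.844 above and −0.73 below a 7SL share of 25%. In all, 9 of 28 pairs passed by Pearson's r and 3 of these also by Spearman's rho, and 12 pairs had opposite signs in the 2 classes. Samples of a class have a similar 7SL share, and what it contributes to these correlations was not tested.

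**Figure D4:**
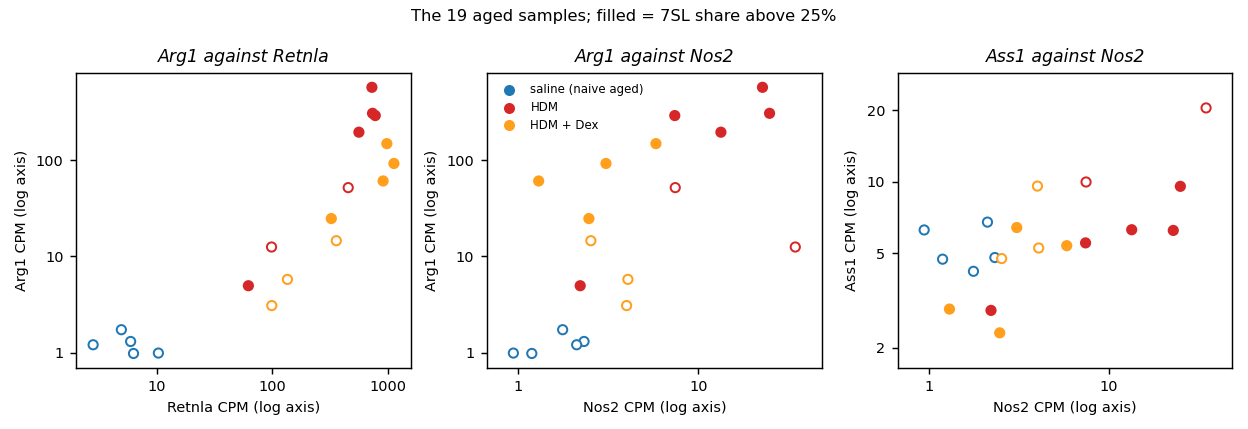
CPM of Arg1 against Retnla, Arg1 against Nos2 and Ass1 against Nos2 in the 19 aged samples on log axes, with filled points for a 7SL share above 25%. Arg1 is mostly higher where Retnla is higher, within HDM and within HDM + Dex, but the groups do not share a single line. At 98.7 and 99.1 CPM of Retnla, HDM replicate 7 has 12.5 CPM of Arg1 and HDM + Dex replicate 7 has 3.08 CPM. HDM replicate 7, with 34.6 CPM of Nos2, also has the highest Ass1, 20.5 CPM.

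The genes most like 3 of the members over the 19 aged samples, by Pearson's r of log2(CPM + 1) among 17743 genes, differed between them. These values include the difference between groups and are a description. For Arg1 they were Pdcd1lg2 (r = 0.975), the checkpoint ligand PD-L2, Rnase2a (0.951), an eosinophil-associated ribonuclease, and Ccl24 (0.950), the chemokine eotaxin-2. For Nos2 they were Mmp14 (0.935), a membrane-bound matrix metalloproteinase, Il1rn (0.910), the IL-1 receptor antagonist, and Cndp2 (0.903), a cytosolic dipeptidase. For Retnla they were genes of epithelial transport, Slc26a4 (0.976), the anion exchanger pendrin, Slc5a1 (0.972), a sodium-glucose transporter, and Pigr (0.932), the polymeric immunoglobulin receptor. Arg1 ranked 12th in likeness to Retnla (r = 0.892). Pigr had means of 70.3 CPM in saline, 550 CPM in HDM and 771 CPM in HDM + Dex, and Slc26a4 had 3.99, 108 and 109 CPM.

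Around the 8 genes, most of the arginine pathway showed no called change. Of 29 tested genes of transport, urea cycle, polyamine, creatine and tetrahydrobiopterin synthesis, 3 were higher and 2 lower with HDM. The higher ones were Gatm, the first enzyme of creatine synthesis, which takes its amidino group from arginine (log2 fold change 2.50, adjusted p = 0.000386, 3.59 to 27.5 CPM), Azin2 (0.70, adjusted p = 0.00469), an antizyme inhibitor, and Slc7a7 (0.50, adjusted p = 0.0431), a subunit of an arginine exporter. Prodh, proline dehydrogenase, was lower (−0.84, adjusted p = 0.00139), and so was Oat, ornithine aminotransferase (−0.59, adjusted p = 0.0368), which was no longer called after rescaling (adjusted p = 0.0679). The list's median was −0.06, or 0.16 after rescaling. Asl, which completes the recycling of citrulline, had a log2 fold change of −0.06 (adjusted p = 0.834), the constitutive transporter Slc7a1 had −0.01 (adjusted p = 0.973), the endothelial synthase Nos3 had −0.30 (adjusted p = 0.379), Gch1, for the cofactor of the synthases, had 0.01 (adjusted p = 0.982), and the antizyme inhibitor Azin1 had −0.38 (adjusted p = 0.0804). In HDM + Dex, Gatm (1.49, adjusted p = 0.0436) and Azin2 (0.66, adjusted p = 0.0425) were higher than in saline. Against HDM, limma called none of the 29 genes, and 2 had an unadjusted p under 0.05.

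Of 25 further genes of alternative activation, 13 were higher and 1 lower with HDM, and the median log2 fold change was 1.02. Mmp12, macrophage elastase, had the largest change (5.18, adjusted p = 8.88e-05, 4.58 to 282 CPM), followed by Ccl24 (3.52, adjusted p = 0.0150) and Chil3, a chitinase-like protein also called Ym1 (3.02, adjusted p = 0.000376, 134 to 1394 CPM). Klf4 was the lower one (−0.86, adjusted p = 0.00437). Of the genes through which IL-4 and IL-13 act, Il4ra had 0.20 (adjusted p = 0.318) and Stat6 −0.19 (adjusted p = 0.366), a sign that changed to 0.06 after rescaling. In HDM + Dex, 6 of the 25 genes were higher than in saline and 1 lower. Mmp12 (3.51, adjusted p = 0.00903), Chil3 (2.40, adjusted p = 0.0111) and Pdcd1lg2 (1.64, adjusted p = 0.0455) had the largest changes. After rescaling, 3 were higher and none lower. In HDM + Dex vs. HDM, limma called none of the 25, although 9 had an unadjusted p under 0.05, 8 of them lower, against 13.5% of all genes. Their median was −0.31, and that of all genes was 0.03.

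Classical activation was represented by 14 tested genes besides Nos2. With HDM, 2 were higher, Irf5 (0.89, adjusted p = 0.00370) and Socs3 (0.78, adjusted p = 0.0406), none was lower, and the median was 0.21. Against HDM, limma called none in HDM + Dex, and 1 had an unadjusted p under 0.05. Of the inducing cytokines and their receptors, 1 of 7 tested genes was higher, Ifngr2 (0.71, adjusted p = 0.00116), a chain of the interferon-γ receptor. Il13 and Ifng themselves were near the limit of detection. Il5 and Il17a were also below the filter, whereas the cytokines Il10, Il33 and Tslp of the same list passed it. Il13 had a mean of 0.192 CPM in HDM, 0.354 CPM in HDM + Dex and 0.0239 CPM in saline, and Ifng had 0.450, 0.359 and 0.130 CPM, all below the filter. Il4 was not analysed here. Of the resistin family, Retnlg had a log2 fold change of −0.54 (adjusted p = 0.313), Retn was below the filter, and Retnlb was not analysed here.

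**Figure D5:**
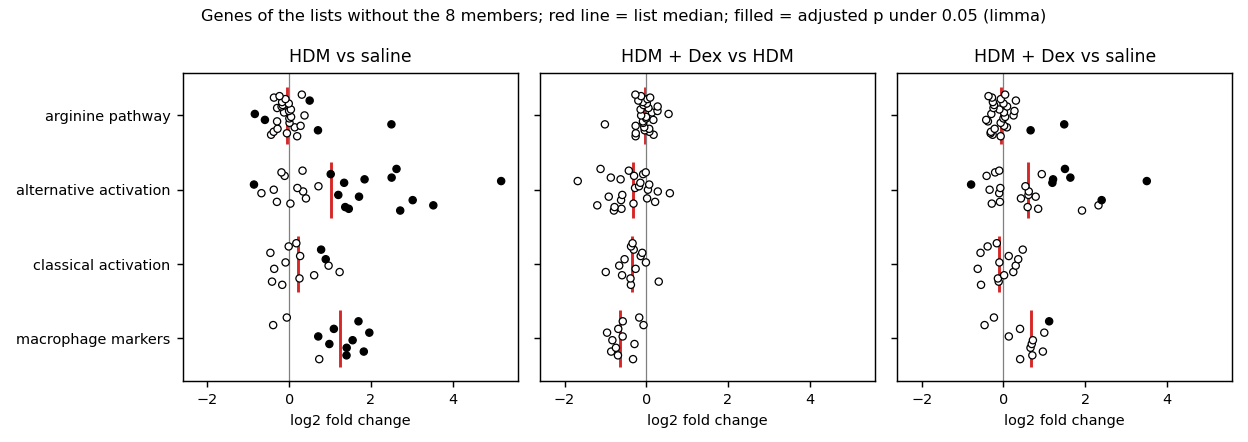
log2 fold changes of the tested genes of 4 lists in the 3 comparisons of aged groups, without the 8 members, with a red line at each list's median and filled points for an adjusted p under 0.05. For HDM vs. saline, the medians lie at −0.06 for the arginine pathway, 1.02 for alternative activation, 0.21 for classical activation and 1.25 for macrophage markers, and no point is filled for HDM + Dex vs. HDM.

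Markers of several cell types changed as well, some higher and others lower, and their part in the members' changes was not tested. Of 12 macrophage markers, 9 were higher and none lower in HDM than in saline, with a median log2 fold change of 1.25. Cd68 (1.55, adjusted p = 0.00184) is an example, while Lyz2 had −0.39 (adjusted p = 0.436). Their summed level was 920 to 2568 CPM in naïve adult, 2449 to 3384 CPM in saline, 2158 to 6344 CPM in HDM and 1306 to 5143 CPM in HDM + Dex. Of 8 alveolar macrophage markers, 2 were higher, one of which, Chil3, is also on the list of alternative activation, and the 6 others did not pass. Eosinophil markers had 1 of 4 tested higher, with summed levels of 7.17 to 11.3 CPM in saline and 7.43 to 35.3 CPM in HDM. Neutrophil markers had 2 of 6 lower, dendritic cell markers none of 6 called (1 at an unadjusted p under 0.05, limma), airway epithelium 1 higher and 5 lower of 8, alveolar epithelium 1 of 7 lower, endothelium 4 of 5 lower, fibroblasts 2 higher and 2 lower of 5, and heart muscle 5 of 5 lower. Of all genes tested, 21.2% were called lower here. After the median-of-ratios rescaling, neutrophil markers had 1 lower, dendritic cell markers 1 higher and airway epithelium 1 higher and 4 lower. Endothelium then had 1 higher and 2 lower, fibroblasts 2 higher and 1 lower, and alveolar epithelium and heart muscle were as before. The airway epithelium markers summed to 4856 to 6856 CPM in saline, 321 to 3435 CPM in HDM and 939 to 5302 CPM in HDM + Dex. In HDM + Dex against HDM, 7 of their 8 had an unadjusted p under 0.05, all higher, and limma called none. The 12 macrophage markers had a median of −0.63 in that comparison, and limma called none of them, with 6 lower at an unadjusted p under 0.05.

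Naïve aged were compared with naïve adult mice to see whether these genes differ with age before allergen. None of the 8 genes was called by limma, and 4 had an unadjusted p under 0.05 (Arg2, Ass1, Odc1 and Retnla), as did 11.2% of all genes. Of all genes tested, 0.654% were called, 0.592% as higher and 0.062% as lower. After the median-of-ratios rescaling, the share of higher genes among those called was 56.3% of 183 instead of 90.5% of 116, and none of the 8 was called either. Arg2 was at 1.13, 2.72, 2.25, 2.44 and 2.37 CPM in adult samples, and 4 of the 5 aged samples lay above these. Its log2 fold change was 0.83 ± 0.26 (SE, adjusted p = 0.209), and the exact permutation test gave p = 0.0159, unadjusted. Ass1 was at 2.34, 3.50, 3.15, 4.75 and 2.26 CPM in adult samples, with a log2 fold change of 0.61 ± 0.21 (SE, adjusted p = 0.253). Retnla was at 7.99, 6.62, 6.96, 11.95 and 12.15 CPM in adult samples, and 4 of 5 aged samples lay below these (−0.57 ± 0.27, SE, adjusted p = 0.442).

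Arg1 was at 0.646, 2.67, 1.78, 2.001 and 3.87 CPM in adult lungs, and the highest aged value was 1.73 CPM. The aged sample was the lower one in 20 of 25 pairs of samples. The log2 fold change of Arg1 was −0.43 ± 0.25 (SE, adjusted p = 0.513, limma). Adult replicate 1, the lowest adult sample, had a 7SL share of 42.0%. Without it the log2 fold change was −0.65 (adjusted p = 0.177, limma). The log2 ratio of Arg1 to Arg2 was −0.06 ± 0.35 (SD, n = 5) in adult and −1.32 ± 0.69 (SD, n = 5) in aged samples, a difference of −1.26 (exact permutation, adjusted p = 0.0190), with none of 25 pairs higher in aged samples. Within the samples below a 7SL share of 25% the difference was −1.34 (exact permutation p = 0.0159, n = 5 and 4). The order of the samples in that subset was fixed by the lack of overlap over all samples. The ratio of Retnla to Mrc1 was lower in aged samples by 1.07 (−1.07, exact permutation, adjusted p = 0.0476). That call was lost without adult replicate 1, 4 or 5 or aged replicate 1, 2, 3 or 4 (exact permutation, adjusted p up to 0.107) and with a pseudocount of 5 (exact permutation, adjusted p = 0.0606). Within the samples below 25% the difference was −0.79 (exact permutation p = 0.0635, n = 5 and 4). All 5 adult mice were female by Xist against 2 of 5 aged mice, so that age and sex are partly confounded here. Among other genes, Cxcl9 (2.04, adjusted p = 0.0240) and Cxcl10 (1.11, adjusted p = 0.0311), chemokines induced by interferon-γ, were higher in aged mice, though not after rescaling (adjusted p = 0.0542 and 0.0559). Retnlg of the resistin family, a neutrophil gene, was also higher (2.09, adjusted p = 0.00620), and 4 of the 6 tested neutrophil markers, of which it is one, were higher.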

How the data were processed

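RNA of 24 left lung lobes, each taken as a separate mouse, was analysed. By the paper's methods, the authors made stranded mRNA libraries and ran a Picard-STAR-limma pipeline, while the submitters' processing notes name FastQC, STAR, DESeq2 and mm9. The authors deposited CPM, counts on genes scaled to the same total, with 0.0001 added to each value. The use of strand in counting and the rule for keeping genes are not given in the sources used here. Gene coordinates in the table started as in GENCODE M21 (GRCm38) for 23142 of 23276 symbols found, and GRCm38 coordinates are given. Whole reads could not be recovered, since only 80.5% to 85.3% of the low values in a sample were multiples of 1 read (tolerance 0.05), and no count test was run. The depth covers counting error only. A file of download instructions was not used. All value columns were matched to samples by their names.

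The members and gene lists were chosen with earlier results of these data known. limma 3.58.1 (R 4.3.3) was run on log2(CPM + 1) with eBayes trend and Benjamini-Hochberg adjustment, for genes whose mean reached 1 CPM, at a threshold of 0.05. The 19 aged samples were fitted together for 3 comparisons that share groups, and the 10 naïve samples on their own. Fold changes understate those of low genes because of the pseudocount of 1. In simulated data with 200 changed genes, limma recovered 197 for HDM vs. saline (17744 genes) and called 10 others. It recovered 199 for HDM + Dex vs. HDM, with 24 others called, and 198 for aged vs. adult, with 6 others called. The changes put in were large and lay only in genes above a set level, and the noise was independent between genes. These numbers hold for that simulation only. How many of the true differences limma finds in the measured samples was not tested. Ratios were compared by exact permutation tests. Besides the 8 members, up to 3 called genes with the largest change per list and comparison were named, with Asl, Slc7a1, Oat, Azin1, Gch1, Nos3, Stat6, Il4ra, Il4, Il13, Ifng, Chil3 and the resistin family in any case. Cd68, Lyz2, Klf4 and Slc7a7 were named after their values were seen. The limit of 25% for the 7SL share, the tests within its classes and the comparison of samples below it with saline were set after the data had been seen. Same-numbered samples of different groups had correlations of their deviations from group means between −0.24 and 0.41, over 0.1 in 3 of 22 pairs. Replicate numbers were therefore not used to pair the samples in the main fit, but such correlations cannot exclude a pairing or a shared batch. The p-values measure the spread between mice. Some items are not reported here. Python 3.11.15, numpy 2.4.6, pandas 2.3.3, scipy 1.17.1 and matplotlib 3.10.9 were used.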

Additional observations from a re-analysis of the deposited data

Results flagged for a closer look

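In 2 of the 32 combinations of a gene and a group, 1 sample lay farther from the rest than the critical value of Dixon's test allows, where about 1.6 would be found by chance. Ass1 was at 20.5 CPM in HDM replicate 7, against 2.87 to 9.98 CPM in the other HDM samples. Slc7a2 was at 38.7 CPM in naïve adult replicate 1, against 51.5 to 54.3 CPM in the other adult samples. That adult sample had the highest 7SL share of all, 42.0%, and its part in the low value was not tested.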

How the results depend on the processing

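Of the 8 genes, 4 were called for HDM vs. saline in 24 of 32 alternatives, 5 in 7 and 2 with the 7SL share as a covariate. For HDM + Dex vs. HDM, 1 was called in 20 alternatives and 0 in 12, namely with no filter, with a replicate block, with the 2 groups fitted alone and, over all samples left out in turn, in a range of 0 to 1. For HDM + Dex vs. saline, 2 were called with a pseudocount of 0.1, a sex covariate, a replicate block or the 2 groups fitted alone, 3 with sample quality weights, and 1 to 2 with 1 sample left out. For aged vs. adult, 0 were called in all 23. The replicate block treats same-numbered samples as paired, which the correlations between them neither called for nor excluded. It moved the calls over all genes from 4482 to 5644 for HDM vs. saline and from 171 to 8 for HDM + Dex vs. HDM. For HDM + Dex vs. saline they moved from 335 to 898, and for aged vs. adult from 116 to 168. For HDM + Dex vs. HDM, leaving out 1 sample gave 2 to 544 calls, the 2 groups alone gave 1, the median-of-ratios rescaling 506, the 7SL covariate 563 and quality weights 611. The causes were not tested.

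Directions changed only for genes that were called in no alternative of the comparison concerned. With the median-of-ratios rescaling, the log2 fold change for HDM vs. saline was 0.0093 for Arg2 and 0.15 for Odc1, that of Odc1 for HDM + Dex vs. HDM was −0.015, those for HDM + Dex vs. saline were 0.069 for Ass1 and 0.14 for Odc1, and that of Slc7a2 for aged vs. adult was −0.030. Without the 7SL genes, Odc1 had 0.14, −0.024 and 0.11 in the 3 aged comparisons and Ass1 had 0.050 for HDM + Dex vs. saline. With quantile normalization, HDM vs. saline gave 0.025 for Arg2 and 0.12 for Odc1, HDM + Dex vs. saline gave 0.047 for Ass1 and 0.15 for Odc1, and aged vs. adult gave −0.0057 for Slc7a2. With the 7SL covariate, HDM vs. saline gave 0.27 for Arg2 and 0.13 for Odc1, HDM + Dex vs. HDM gave −0.023 for Odc1, HDM + Dex vs. saline gave 0.022 for Arg2, 0.38 for Ass1 and 0.11 for Odc1, and aged vs. adult gave −0.00014 for Slc7a2 and −0.0016 for Mrc1. With the sex covariate, Odc1 had −0.034 for HDM + Dex vs. HDM.

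With 1 sample left out, Arg2 ran from −0.34 to 0.041 and Odc1 from −0.17 to 0.012 for HDM vs. saline. For HDM + Dex vs. HDM, Arg2 ran from −0.27 to 0.00088, Odc1 from −0.085 to 0.092 and Retnla from −0.23 to 0.51. For HDM + Dex vs. saline, Ass1 ran from −0.24 to 0.035 and Odc1 from −0.14 to 0.019. The log2 ratio of Arg1 to Nos2 for HDM vs. saline ran from 2.57 to 3.66 with adjusted p from 0.0121 to 0.0831, and was 2.56 with a pseudocount of 5 (adjusted p = 0.0606, exact permutation). For HDM + Dex vs. saline it ran from 2.58 to 3.42 (adjusted p from 0.0104 to 0.0606), for HDM + Dex vs. HDM from −0.73 to 0.45, with 0.14 at a pseudocount of 0.1, and for aged vs. adult from −0.36 to 0.25. The ratio of Retnla to Mrc1 for aged vs. adult ran from −1.28 to −0.79 (adjusted p from 0.0317 to 0.107), and was −0.83 with a pseudocount of 5 (adjusted p = 0.0606, exact permutation). Il13 and Ifng were left out by the filter on the mean.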
